A study of Mus musculus with 6 samples.

Results

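The genes described here are the chemokines and chemokine receptors of the mouse, measured by RNA-seq in the host tissue around implanted engineered cartilage. Members were the genes of the count table whose symbols name a chemokine ligand of the Ccl, Cxcl, Xcl1 or Cx3cl1 type, a receptor of the Ccr, Ccrl2, Cxcr, Xcr1 or Cx3cr1 type, or an atypical receptor of the Ackr type. This rule took 64 of 48440 genes, of which 40 were ligands, 19 were signalling receptors and 5 were atypical receptors. In the study, cartilage engineered from rabbit bone marrow stromal cells was wrapped in an electrospun membrane of PCL and collagen and placed under the skin of BALB/c nude mice, which lack a functional thymus and have few T cells. The membrane held axitinib, an inhibitor of the receptors for vascular endothelial growth factor, at 0% or 3% of its polymer weight. Male mice of 6 to 8 weeks were bought for the study, and the tissue was collected 12 weeks after implantation. Each group had 3 samples, named here 0%-Axitinib and 3%-Axitinib replicates 1 to 3. The labels call the samples of the first group untreated or ctrl, and reading them as the 0%-Axitinib group underlies every comparison here. According to the methods of the study a mouse carried a pair of constructs. Which mouse a sample came from is not in the labels, so p-values measure only the spread between these samples.

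Chemokines are small secreted proteins that bind receptors coupled to G proteins and steer leukocytes along gradients. They are grouped by the spacing of their first cysteines into CC, CXC, C and CX3C families, and many ligands share receptors. Atypical receptors bind chemokines without the usual G protein signal and can remove or transport them, and around implants the system is known for recruiting neutrophils, monocytes and lymphocytes from the blood.

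Depth differed between the samples. The counts on genes were 17761968, 16716411 and 18005908 in 0%-Axitinib replicates 1 to 3, and 9225518, 11686084 and 18403795 in 3%-Axitinib replicates 1 to 3. Unmapped reads made up 5.47%, 3.84% and 14.9% of the reads in the 0%-Axitinib group and 48.4%, 29.2% and 16.8% in the 3%-Axitinib samples, so the group difference goes along with a difference in unmapped share whose part in the results below was not tested. Levels are given in CPM, the counts of a gene relative to the total of its sample, after TMM scaling. A level of 3 counts, taken as the floor for counting error only, was between 0.156 and 0.330 CPM in the 6 samples. Members took 0.334%, 0.249% and 0.364% of the counts in the 0%-Axitinib group and 0.360%, 0.269% and 0.224% in the 3%-Axitinib samples.

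One 0%-Axitinib library stood apart from the others. In 0%-Axitinib replicate 3 the 10 neutrophil markers together reached 37630 CPM, against 82.8 and 89.7 CPM in 0%-Axitinib replicates 1 and 2 and 187, 133 and 71.6 CPM in the 3%-Axitinib samples. The most abundant of them per kilobase was S100a9, a calcium-binding protein of neutrophils, at 10628 CPM in 0%-Axitinib replicate 3 and at most 43.1 CPM elsewhere. Camp, Ngp and Ltf, proteins of neutrophil granules that precursor cells in bone marrow make, stood there at 4562, 7881 and 4366 CPM and at most at 3.85 CPM in any other sample. The same library was the highest in the summed markers of T and NK cells, B and plasma cells, and mast cells and eosinophils, which are given with the members below. For single members whose log2 fold change rested on 0%-Axitinib replicate 3, the value without it is given. The counts of ligand and receptor pairs and the medians of CC and CXC ligands were not taken without it. In bulk tissue fewer cells of a type and less RNA per cell cannot be told apart, and this holds for every member.

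Of the 64 members, 47 had at least 10 counts in 3 or more columns and were tested with the quasi-likelihood test of edgeR, within a fit of all 15115 genes that passed. The study's criterion, a fold change of at least 1.5 with an unadjusted p of at most 0.05, was met by 14 members that were lower in the 3%-Axitinib group (29.8% of those tested, against 11.8% of all tested genes) and by 2 that were higher (4.26% against 9.54%). The levels of the groups did not overlap for 11 members that were lower (23.4%, against 16.7% of all genes) and for 1 that was higher (2.13% against 14.6%). The median log2 fold change of the tested members was -0.68, beside -0.035 for all tested genes, and 31 of 47 lay below 0. Scaling by total counts alone moved the median of all genes to -0.16, and then 16 members were lower and none higher by the criterion, beside 2444 lower and 972 higher genes in all against 1779 and 1442 with TMM. After Benjamini-Hochberg adjustment in edgeR no member passed at 0.05 and 1 gene of the table did (0.00662%), while the unadjusted p was 0.05 or less for 16 members and 3563 genes. DESeq2 gave 12 members (13.0% of all genes) and limma-voom none (0.0132% of all genes) at that adjusted p. Among those called by DESeq2 were Cxcr1, Cxcr4, Xcl1, Cxcl9, Cxcl12, Cx3cr1, Cxcr6, Xcr1, Ccr2, Ccl8 and Ccl5, and all 12 were lower in the 3%-Axitinib group, 9 of them when Xcl1, Xcr1 and Cxcr6, whose direction was set by the filter as given below, are left out. Of the 16 members that met the criterion in edgeR, 15 met it in DESeq2, which gave a log2 fold change of -3.615 but no p-value for Cxcl10, and Cxcr1, Cxcl10, Ackr2, Cxcr6, Ccl2, Ccl5 and Cxcr3 missed it in limma-voom. Ackr3, Ccrl2, Ccr3, Ccl12 and Cxcl14 met it in DESeq2 and not in edgeR with TMM, and of these Ccr3 also met it in limma-voom, Ccr3 and Ccl12 with total counts, and all but Ackr3 without a filter on counts.

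Passing the filter on counts was tied to a group for 3 members. Xcl1, Xcr1 and Cxcr6 reached 10 counts in the 0%-Axitinib columns only, so they had to differ. Leaving them out, 44 tested members gave 11 lower and 2 higher by the criterion, 8 and 1 without overlap, and a median log2 fold change of -0.58. Of all tested genes, 11.8% were lower and 9.54% higher by the criterion, and 16.7% were lower and 14.6% higher without overlap. The 8 of 44 lower without overlap are thus near the share of all genes.

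Without 0%-Axitinib replicate 3, 12 members were lower by the criterion (13.8% of all genes were) and 2 were higher (14.5% of all genes), and the median of the 47 was -0.31 with 27 below 0, while for the 44 there were 9 lower and 2 higher, 24 below 0 and a median of -0.24. After adjustment in edgeR 6 members then passed at 0.05, Cxcr1, Cxcr4, Ccrl2, Xcr1, Ccr2 and Ccl8, beside 10.3% of all genes. Among these, Xcr1 had its direction set by the filter. In 12 of the 47 members 0%-Axitinib replicate 3 was the highest sample and at least 2 times the next (25.5%, against 6.58% of all genes), namely Cxcr2, Xcl1, Cxcl9, Cxcl10, Cxcl12, Cxcr5, Ackr4, Cxcr6, Ccr2, Ccl12, Ccl5 and Ccl4. With each of the 6 samples left out in turn, 8 of the 16 members met the criterion every time, among them Cxcr4, Cxcl9, Cx3cr1, Cxcr6, Xcr1, Ccr2 and Ccl8, as did 1460 of the 3221 genes in all that met it. Leaving out the 3 members whose direction the filter set, it was met every time by 6 of 13 members, and by 1352 of 3045 genes that likewise reached 10 counts in a column of each group.

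**Figure D1:**
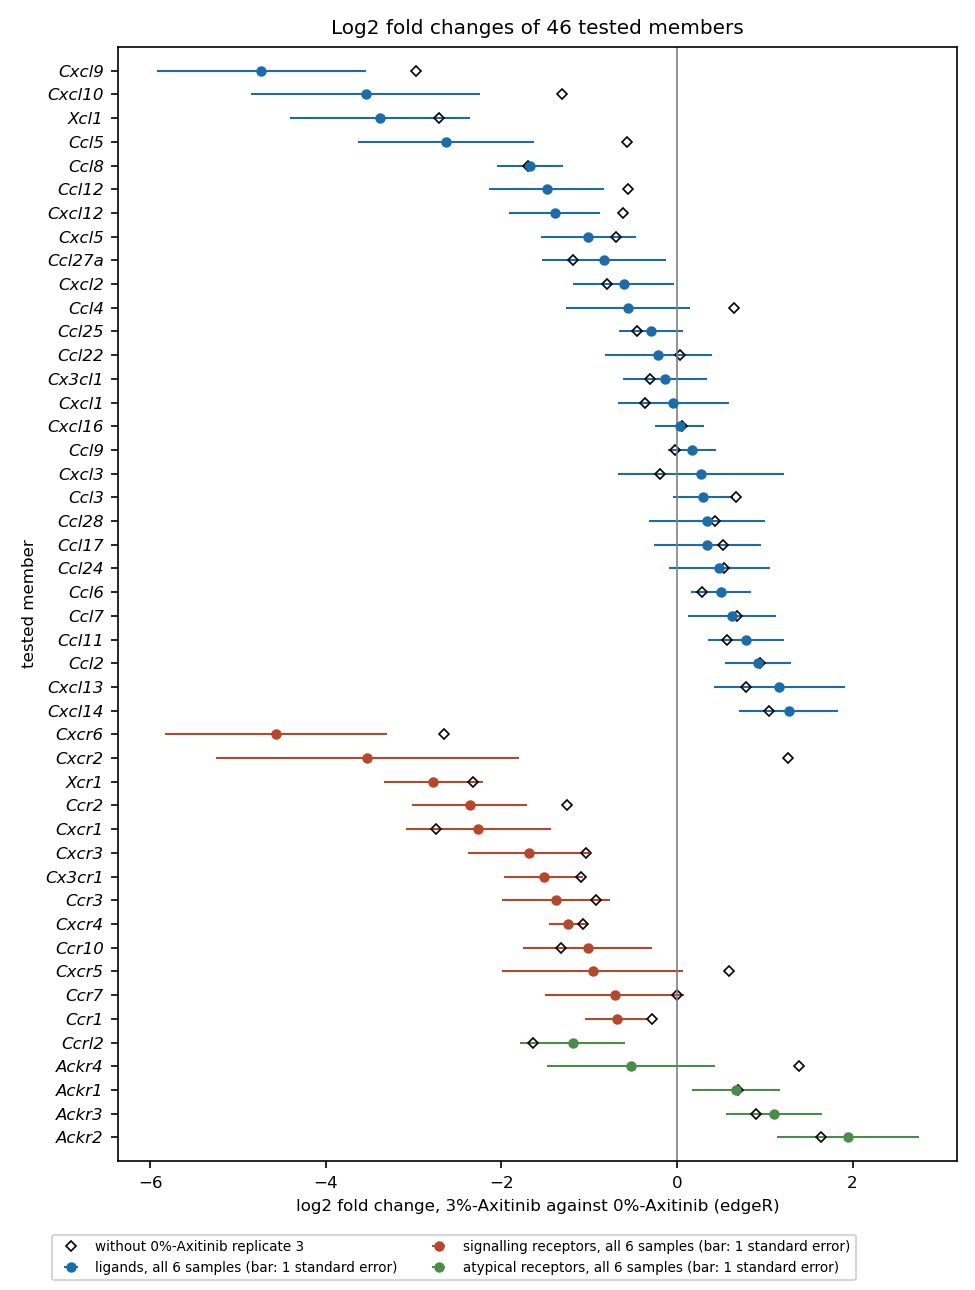
Log2 fold change of tested members, 3%-Axitinib against 0%-Axitinib, from edgeR, with bars of 1 standard error and open diamonds for the fit without 0%-Axitinib replicate 3. The signalling receptors shown all lie below 0 with 6 samples, as under both other scalings, and Cxcr2 moves from -3.53 to 1.26 without that replicate.

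Among ligands, 28 of 40 were tested, 6 were lower and 1 was higher by the criterion, against 11.8% and 9.54% of all genes, and the median log2 fold change was -0.088, with 15 below 0 and 13 above. Leaving out Xcl1, 5 of 27 were lower and the median was -0.042. Without 0%-Axitinib replicate 3 the median was -0.11 for all 28 and -0.024 for the 27. To compare levels between genes, CPM was divided by the length of the merged exons in kilobases. Averaged over the 6 samples, the highest ligands per kilobase were Ccl8 at 315, Ccl6 at 250.3, Cxcl14 at 242, Cxcl13 at 221 and Ccl9 at 98.9 CPM per kilobase, with standard deviations over the 6 samples of 199, 77.9, 172, 178 and 19.0. These neighbours in the order lie within their spread.

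Ccl8 is a CC chemokine of the monocyte chemoattractant family and was the first ligand per kilobase in every 0%-Axitinib sample, with 35.0%, 33.0% and 35.6% of the summed ligand level per kilobase. Its levels were 308, 192 and 235 CPM in 0%-Axitinib replicates 1 to 3 and 112, 45.0 and 73.6 CPM in the 3%-Axitinib samples. All 3 samples of the 3%-Axitinib group lay below all samples of the other, and no single sample stood out. This gave a log2 fold change of -1.67 (SE 0.37), with an adjusted p of 0.0968 in the quasi-likelihood test of edgeR and between 0.00110 and 0.183 in the other settings with all samples. In the 3%-Axitinib samples Ccl8 held 11.3%, 6.41% and 12.2% of the summed ligand level per kilobase, and the first place went to Cxcl13 in replicate 1 (27.1%), Cxcl14 in replicate 2 (33.8%) and Cxcl13 in replicate 3 (26.1%).

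Ccl6, a CC ligand of rodents that binds Ccr1 and is made by myeloid cells, was measured at 540.3, 325 and 250.3 CPM in the 0%-Axitinib group and 532, 614 and 434 CPM in the 3%-Axitinib samples. The groups overlapped, and the log2 fold change of 0.50 (SE 0.34) did not meet the criterion. For Ccl6 it was 0.87 without 0%-Axitinib replicate 1 and then did. Cxcl14, a chemokine found in skin and connective tissue, stood at 307, 296 and 174 CPM in the 0%-Axitinib group and at 834, 848 and 194 CPM in the 3%-Axitinib samples. Replicates 1 and 2 of the 3%-Axitinib group were above every 0%-Axitinib sample, while replicate 3 lay among them. Those replicates 1 and 2 also had the largest unmapped shares of the 6 samples, and the part of this in Cxcl14 was not tested. The log2 fold change of Cxcl14 was 1.27 (SE 0.57), which did not meet the criterion, and 1.69 without 3%-Axitinib replicate 3, which did. Cxcl13, the B cell attractant that binds Cxcr5, was chosen after its values were seen and had 276, 129.8 and 62.7 CPM in the 0%-Axitinib group and 604, 95.5 and 354 CPM in the 3%-Axitinib samples. These ranges overlapped, with 3%-Axitinib replicates 1 and 3 the highest of the 6. The log2 fold change of Cxcl13 was 1.17 (SE 0.75), which did not meet the criterion. With each sample left out it ran from 0.51 to 1.87, and it met the criterion without 3%-Axitinib replicate 2.

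**Figure D2:**
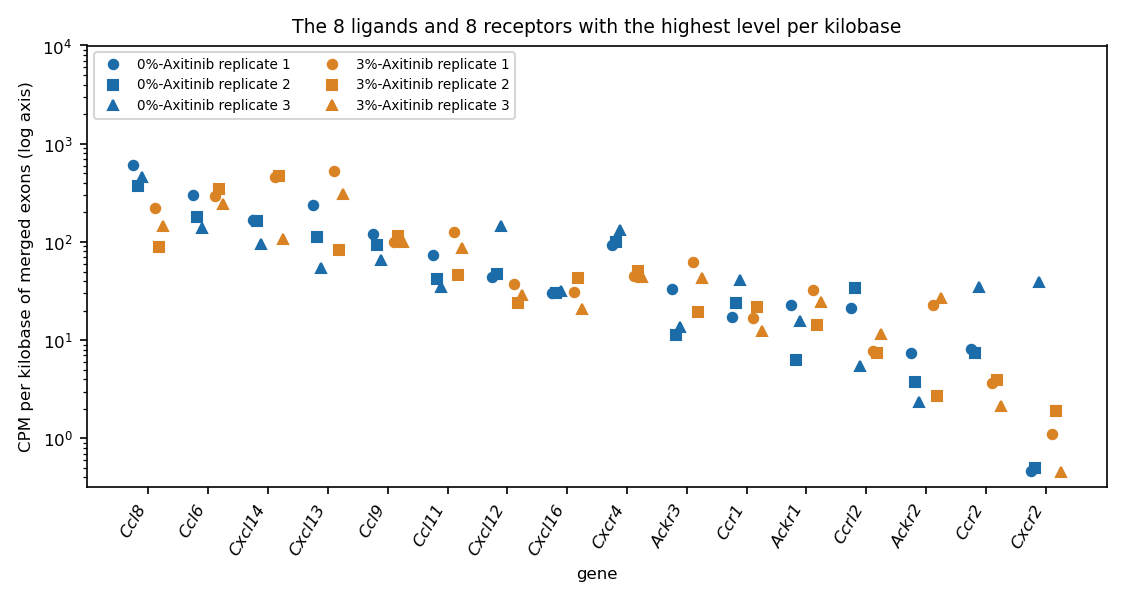
Level in CPM per kilobase of merged exons on a log axis for the 8 ligands and the 8 receptors with the highest mean over the samples, 1 symbol per sample. Ccl8 is the highest ligand in the 0%-Axitinib samples, Cxcr4 the highest signalling receptor in all 6, and Cxcr2 is high in 0%-Axitinib replicate 3 alone.

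Cxcl12, which binds Cxcr4 and Ackr3 and is made by stromal and endothelial cells, had 358, 389.6 and 1179 CPM in the 0%-Axitinib group and 306, 193 and 233 CPM in the 3%-Axitinib samples. The groups did not overlap, and 0%-Axitinib replicate 3 was at least 2 times the next sample. In edgeR the log2 fold change was -1.39 (SE 0.51) with all samples and -0.61 without 0%-Axitinib replicate 3, and the criterion was met both ways. It was not met without 3%-Axitinib replicate 2 (-1.24) or replicate 3 (-1.36).

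Cxcl9, Cxcl10 and Cxcl11 are the ligands of Cxcr3, are induced by interferon-gamma and attract activated T and NK cells. Cxcl9 was measured at 6.87, 16.9 and 97.0 CPM in the 0%-Axitinib group and at 3.19, 0.455 and 1.04 CPM in the 3%-Axitinib samples. All 3%-Axitinib samples lay lower, and 0%-Axitinib replicate 3 was far above the rest. The log2 fold change was -4.73 (SE 1.19) and, without 0%-Axitinib replicate 3, -2.97, meeting the criterion in both cases. Cxcl10 had 1.82, 1.80 and 21.8 CPM in the 0%-Axitinib group and 0.439, 0.0910 and 1.501 CPM in the 3%-Axitinib samples. These groups also did not overlap, but 0%-Axitinib replicates 1 and 2 stood close to 3%-Axitinib replicate 3. Its log2 fold change of -3.55 (SE 1.31) became -1.31 without 0%-Axitinib replicate 3 and then missed the criterion, as it did without 3%-Axitinib replicate 1 (-3.32) or replicate 2 (-3.04). The counts behind Cxcl10 were 4, 1 and 26 in the 3%-Axitinib samples. Cxcl11 did not pass the filter, with 127 counts in 0%-Axitinib replicate 3 and at most 2 in any other sample.

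Ccl5, a ligand of Ccr1 and Ccr3 made by T and NK cells among others, stood at 4.00, 7.84 and 62.5 CPM in the 0%-Axitinib group and at 4.28, 3.00 and 4.68 CPM in the 3%-Axitinib samples. The groups overlapped, and 0%-Axitinib replicate 3 was the only high sample. This gave a log2 fold change of -2.63 (SE 1.01) with all samples and -0.56 without 0%-Axitinib replicate 3, which did not meet the criterion. Nor was it met without 3%-Axitinib replicate 1 (-2.66), 2 (-2.45) or 3 (-2.75).

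Xcl1, the C chemokine of activated T and NK cells, and its receptor Xcr1, a marker of cross-presenting dendritic cells, were both scarce. Xcl1 had 11, 17 and 41 counts (0.572, 0.987 and 2.22 CPM) in the 0%-Axitinib group and 3, 0 and 1 counts (0.330, 0 and 0.0577 CPM) in the 3%-Axitinib samples. Xcl1 reached 10 counts in the 0%-Axitinib columns only, so the filter set its direction, which the interval and criterion below do not test. No 3%-Axitinib sample was above the floor of 3 counts. Summed over each group and scaled, the 0%-Axitinib level was 11.8 times the other, with an exact 95% interval of 4.39 to 44.3 for counting error only. The fitted log2 fold change was -3.38 (SE 1.02), and leaving out 0%-Axitinib replicate 3 gave -2.71, leaving out 3%-Axitinib replicate 1 gave -4.91 and leaving out 3%-Axitinib replicate 3 gave -2.95, the last missing the criterion.

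Ccl2, the monocyte attractant that binds Ccr2, was the 1 ligand that was higher by the criterion. Its levels were 28.5, 15.8 and 23.1 CPM in the 0%-Axitinib group and 29.8, 65.85 and 32.4 CPM in the 3%-Axitinib samples. The groups did not overlap, though 3%-Axitinib replicate 1 and 0%-Axitinib replicate 1 lay side by side and 3%-Axitinib replicate 2 was the 1 high sample. In edgeR the log2 fold change was 0.92 (SE 0.38), and leaving out 3%-Axitinib replicate 2 gave 0.47, leaving out 0%-Axitinib replicate 2 gave 0.73 and leaving out 0%-Axitinib replicate 3 gave 0.94, each missing the criterion. With total counts as the scale it was 0.78 and missed the criterion too, and the groups then overlapped.

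The other tested ligands did not meet the criterion in edgeR with TMM and all samples. With a sample left out, Ccl11 met it without 0%-Axitinib replicate 1 or 3%-Axitinib replicate 2. Cxcl5 met it without 0%-Axitinib replicate 2 or 3%-Axitinib replicate 1, and Ccl12 without 0%-Axitinib replicate 2. Within the monocyte attractants Ccl7 and Ccl12 had log2 fold changes of 0.63 and -1.49, the latter being -0.55 without 0%-Axitinib replicate 3. Ccl3 and Ccl4, the macrophage inflammatory proteins, had 0.30 and -0.56, and without that replicate 0.67 and 0.64, so Ccl4 changed sign and Ccl3 met the criterion. Ccl9, a rodent ligand of Ccr1, had 0.17. The eosinophil attractants Ccl11 and Ccl24, ligands of Ccr3, had 0.78 and 0.48. For the neutrophil attractants Cxcl1, Cxcl2, Cxcl3 and Cxcl5, which bind Cxcr2, the values were -0.042, -0.61, 0.28 and -1.01, and their summed level was between 5.46 and 25.8 CPM in the 6 samples. Ccl17 and Ccl22, the ligands of Ccr4, had 0.35 and -0.21. The membrane-bound chemokines Cxcl16 and Cx3cl1 had 0.030 and -0.13, and the sign for Cxcl16 turned with total counts as the scale. Ccl25, Ccl27a and Ccl28, known from epithelia and the thymus, had -0.29, -0.83 and 0.34, with no sample above 4.70 CPM. As a subset, the 16 tested CC ligands had a median log2 fold change of 0.23 and the 10 tested CXC ligands one of -0.33.

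Of the 19 signalling receptors, 14 were tested, 8 were lower and none was higher by the criterion of edgeR, against 11.8% and 9.54% of all genes, and 6 were lower without overlap between groups, against 16.7% of all genes. All 14 had log2 fold changes below 0 with TMM, with DESeq2 size factors and with total counts, and the median was -1.45. For Xcr1 and Cxcr6 the filter set this direction in advance. Among the other 12, 6 were lower by the criterion, 4 were lower without overlap, all 12 lay below 0 under the 3 scalings and the median was -1.31. Without 0%-Axitinib replicate 3, 11 of 14 were below 0, 7 were lower by the criterion and the median was -1.05, and of the 12 there were 9 below 0 and 5 lower, with a median of -0.98. Their summed level was 346, 383 and 849 CPM in the 0%-Axitinib group and 201, 223 and 164 CPM in the 3%-Axitinib samples.

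Cxcr4, the receptor of Cxcl12 on leukocytes, stem cells and endothelial tip cells, was the first signalling receptor per kilobase in all 6 samples, with 67.7%, 64.3% and 46.1% of the summed receptor level per kilobase in the 0%-Axitinib group and 57.6%, 58.2% and 64.0% in the 3%-Axitinib samples. It was measured at 168, 182 and 242 CPM in the 0%-Axitinib group and at 81.5, 90.5 and 78.7 CPM in the 3%-Axitinib samples. The groups stood well apart, and the samples within each were close. The log2 fold change was -1.24 (SE 0.22), with an adjusted p of 0.0957 in the quasi-likelihood test of edgeR, the smallest of the members and shared with Xcr1, and between 2.58e-05 and 0.205 in the other settings with all samples. All 3 samples of the 3%-Axitinib group showed the direction, and the value was -1.07 without 0%-Axitinib replicate 3.

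Ccr2 is the receptor by which inflammatory monocytes follow Ccl2. It had 54.7, 49.9 and 235 CPM in the 0%-Axitinib group and 24.7, 26.8 and 14.6 CPM in the 3%-Axitinib samples. The groups did not overlap, and 0%-Axitinib replicate 3 was the highest by more than 2 times. This gave a log2 fold change of -2.36 (SE 0.66) with all samples and -1.25 without that replicate, and the criterion was met both ways. Cx3cr1, the fractalkine receptor of patrolling monocytes and tissue macrophages, had 18.2, 15.6 and 34.1 CPM in the 0%-Axitinib group and 7.80, 4.37 and 11.4 CPM in the 3%-Axitinib samples. Here too all 3%-Axitinib samples were lower, and the log2 fold change was -1.52 (SE 0.45).

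Ccr1, the second signalling receptor per kilobase in all 6 samples and a receptor of Ccl3, Ccl5, Ccl6 and Ccl9 on myeloid cells, had 48.9, 68.3 and 115 CPM in the 0%-Axitinib group and 48.0, 61.9 and 34.9 CPM in the 3%-Axitinib samples. The groups overlapped, and the log2 fold change of -0.68 (SE 0.36), or -0.28 without 0%-Axitinib replicate 3, did not meet the criterion, while it was -0.93 and did without 0%-Axitinib replicate 1.

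Receptors typical of lymphocytes and dendritic cells were low in level. Xcr1 and Cxcr6 reached 10 counts in the 0%-Axitinib columns only, so the filter set their direction. The intervals and criterion given for them do not test it, and the intervals leave out the spread between samples. Xcr1 had 34, 26 and 64 counts (1.77, 1.51 and 3.47 CPM) in the 0%-Axitinib group and 2, 5 and 5 counts (0.220, 0.455 and 0.289 CPM) in the 3%-Axitinib samples. The groups did not overlap, and over group sums the 0%-Axitinib level was 7.04 times the other (exact 95% counting interval 3.89 to 14.0). Its log2 fold change was -2.77 (SE 0.56) and -2.32 without 0%-Axitinib replicate 3. Cxcr6, the receptor of Cxcl16 on effector and resident T cells and NKT cells, had 15, 54 and 339 counts (0.780, 3.13 and 18.4 CPM) in the 0%-Axitinib group and 2, 6 and 3 counts (0.220, 0.546 and 0.173 CPM) in the 3%-Axitinib samples. The 0%-Axitinib samples spread widely but all lay above the others, with 25.3 times the level over group sums (exact 95% counting interval 14.0 to 51.0). In edgeR the log2 fold change was -4.57 (SE 1.27), and -2.65 without 0%-Axitinib replicate 3, with the criterion met both ways. Cxcr3, the receptor of Cxcl9 and Cxcl10 on activated T and NK cells, had 2.65, 6.73 and 12.6 CPM in the 0%-Axitinib group and 1.65, 1.18 and 3.87 CPM in the 3%-Axitinib samples. Here 3%-Axitinib replicate 3 overlapped the other group. The log2 fold change was -1.69 (SE 0.69), and the criterion was missed without 0%-Axitinib replicate 3 (-1.04), 0%-Axitinib replicate 2 (-1.74), 3%-Axitinib replicate 1 (-1.505) or 3%-Axitinib replicate 2 (-1.38).

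Cxcr1 and Cxcr2, neighbouring genes for receptors of neutrophil attractants, had different patterns over the samples. Cxcr1 stood at 4.73, 9.46 and 0.975 CPM in the 0%-Axitinib group and at 1.32, 0.546 and 1.27 CPM in the 3%-Axitinib samples. The library with the high neutrophil markers, 0%-Axitinib replicate 3, was among the low samples, and the groups overlapped through it. This gave a log2 fold change of -2.26 (SE 0.83) with all samples and -2.75 without 0%-Axitinib replicate 3, and the criterion was missed without 0%-Axitinib replicate 2 (-1.44), 3%-Axitinib replicate 1 (-2.45), 2 (-1.96) or 3 (-2.45). Cxcr2, singled out after its values were seen, had 1.40, 1.51 and 118 CPM in the 0%-Axitinib group and 3.41, 5.82 and 1.39 CPM in the 3%-Axitinib samples. Only 0%-Axitinib replicate 3 was high, and the log2 fold change of -3.53 (SE 1.72), which did not meet the criterion, was 1.26 without it.

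**Figure D3:**
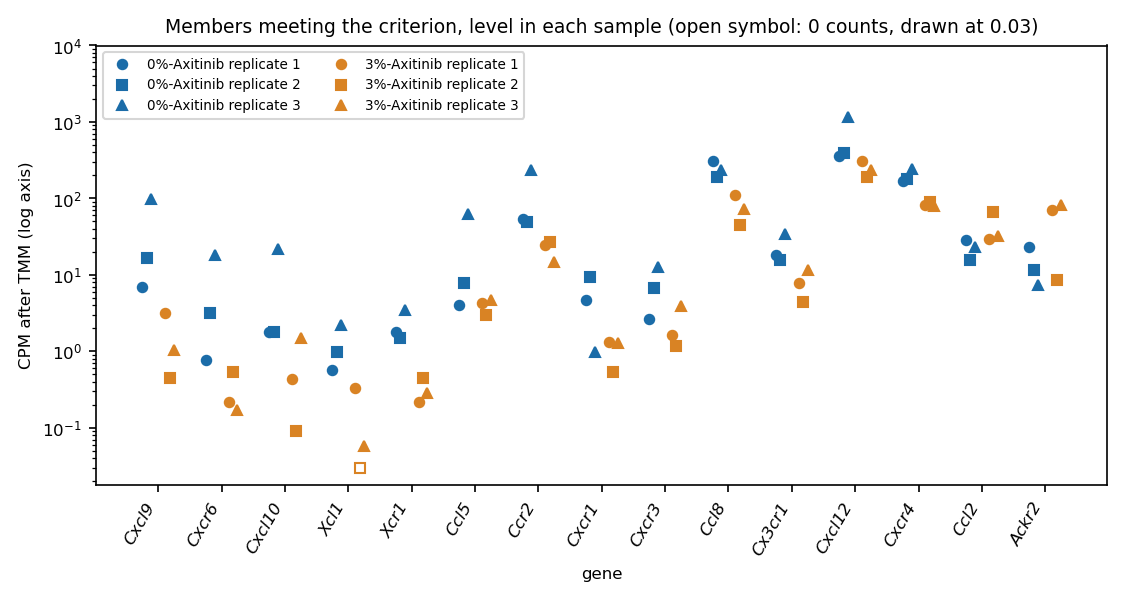
Level in CPM after TMM on a log axis of members that met the criterion, 1 symbol per sample, with 0 counts drawn as an open symbol at 0.03 CPM. The symbols of Cxcr4 and Ccl8 form separate groups, while Ccl5, Cxcl10 and Cxcr6 are led by 0%-Axitinib replicate 3.

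The remaining tested signalling receptors did not meet the criterion in edgeR with TMM. Ccr3, the receptor of eosinophils, had a log2 fold change of -1.38, Ccr10 -1.02, Cxcr5, the B cell receptor of Cxcl13, -0.96 and Ccr7, which guides dendritic cells and T cells to lymph nodes, -0.71. Without 0%-Axitinib replicate 3 the value of Cxcr5 was 0.59 and that of Ccr7 was 0.0030. Ccr3 had -2.12 without 3%-Axitinib replicate 2 and then met the criterion.

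Atypical receptors were 5, all tested, with 1 higher by the criterion and none lower, against 9.54% and 11.8% of all genes, and a median log2 fold change of 0.67, or 0.90 without 0%-Axitinib replicate 3. Ackr2, which binds and degrades inflammatory CC chemokines and is found on lymphatic endothelium, had 23.0, 11.6 and 7.42 CPM in the 0%-Axitinib group and 70.5, 8.46 and 83.3 CPM in the 3%-Axitinib samples. Replicates 1 and 3 of the 3%-Axitinib group were high and replicate 2 lay within the other group. In edgeR the log2 fold change was 1.95 (SE 0.81), and the criterion was missed without 0%-Axitinib replicate 2 (1.83), 0%-Axitinib replicate 3 (1.64), 3%-Axitinib replicate 1 (1.70) or 3%-Axitinib replicate 3 (1.48), with total counts as the scale and in limma-voom. Ackr3, the scavenger of Cxcl12, was the receptor with the second highest mean per kilobase after Cxcr4, at 30.5 against 77.6 CPM per kilobase. Its levels were 111, 37.9 and 45.9 CPM in the 0%-Axitinib group and 209, 65.4 and 144 CPM in the 3%-Axitinib samples. The groups overlapped at 0%-Axitinib replicate 1, and the log2 fold change of 1.10 (SE 0.55) did not meet the criterion, while it was 1.73 and did without that replicate, and 1.43 and did without 3%-Axitinib replicate 2.

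Among the other atypical receptors, Ackr1, which carries chemokines across venules, had a log2 fold change of 0.67, but its exons overlap those of Cadm3 on the same strand. Ackr4, a scavenger of Ccl19 and Ccl21, had -0.52 with all samples and 1.40 without 0%-Axitinib replicate 3, where it met the criterion. Ccrl2, which presents chemerin and does not signal, was chosen after its values were seen and had 55.0, 88.9 and 14.1 CPM in the 0%-Axitinib group and 20.2, 19.2 and 29.7 CPM in the 3%-Axitinib samples. Here 0%-Axitinib replicate 3 was the lowest of the 6, and the log2 fold change was -1.19 with all samples and -1.64 without it. Leaving out 0%-Axitinib replicate 2 instead gave -0.58. In skeletal muscle markers the same 3%-Axitinib samples that were high in Ackr2, replicates 1 and 3, also stood out: 8 of 10 tested were higher by the criterion, and their summed level was 12780, 17.8 and 7327 CPM in the 3%-Axitinib group, against 129, 5.92 and 10.9 CPM in the 0%-Axitinib samples, led per kilobase by Acta1, the skeletal muscle actin. The part of the muscle signal in the levels of Ackr2, Ackr3 and Cxcl13 was not tested.

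Ligands and receptors were set side by side in 35 known pairs, of which 26 had both genes tested. Leaving out the pairs with Xcl1, Xcr1 or Cxcr6, whose direction the filter set, 24 had both tested, 4 had both lower and 5 had only the receptor lower with a ligand that did not meet the criterion. With them, in 5 pairs both were lower by the criterion, among them Cxcl9 with Cxcr3, Cxcl10 with Cxcr3, Cxcl12 with Cxcr4 and Xcl1 with Xcr1. In 6 pairs the receptor was lower and the ligand did not meet the criterion, among them Ccl7 and Ccl12 with Ccr2, Cxcl16 with Cxcr6 and Cx3cl1 with Cx3cr1. For Ccl2 and Ccr2 the ligand was higher and the receptor lower. In 2 pairs, Ccl5 with Ccr1 and Cxcl12 with Ackr3, the ligand alone was lower, and in the other 12 neither met the criterion. Pairs share genes, so they are not independent of each other. With 0%-Axitinib replicate 3 left out, Cxcl10, Cxcr3, Ccl5 and Ccl2 missed the criterion and Ccl3 met it. Of the pairs named as both lower, Cxcl12 with Cxcr4 stayed, as did Xcl1 with Xcr1, whose direction the filter had set. The pairs with Cxcr3 were then no longer both lower. Nor was Ccl2 then higher by the criterion beside the lower Ccr2, or Ccl5 lower beside Ccr1. The pairs were not counted again in that setting.

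Many members lie in clusters, given here with GENCODE M21 positions on GRCm38. On chromosome 9 between 123678439 and 124147699 lie 8 receptor genes, of which 6 were tested. All 6 had log2 fold changes below 0, and 4 of them were lower by the criterion, Cxcr6, Xcr1 and Ccr2 among these. Without Cxcr6 and Xcr1, whose direction the filter set, 4 were tested, 4 lay below 0 and 2 were lower by the criterion. Of all tested genes 11.8% were lower. All 14 tested signalling receptors lay below 0 and 8 of them were lower, so this was not particular to the cluster. On chromosome 5 between 92321347 and 92365485 lie Cxcl9, Cxcl10 and Cxcl11. On chromosome 11, the cluster from 82035571 to 82305690 holds Ccl2, Ccl7, Ccl11, Ccl12, Ccl8 and Ccl1, in which Ccl8 was lower and Ccl2 higher by the criterion. The cluster from 83525778 to 83664683 on that chromosome holds Ccl5, Ccl9, Ccl6, Ccl3 and Ccl4, with only Ccl5 lower by the criterion.

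Some of these counts are uncertain because genes share bases. The exons of 9 tested members overlap another gene, and the sources used here do not say whether counting used the strand. They are Ackr1 with Cadm3 on the same strand and, on opposite strands, Cxcl16 with Zmynd15, Cxcl10 with Art3, Cxcr5 with Bcl9l, Ackr4 with Acad11, Ccl25 with Elavl1, Ccl27a with Il11ra1, Xcl1 with Gm20743 and Cx3cr1 with Gm33858. Of the 50-base words of members, Ccl27a shares 45.0% and Ackr1 20.4% with other genes, Cxcl2, Cxcl3 and Cxcr2 share 5.84%, 4.24% and 4.01%, and Ccl9, Ccr2 and Xcr1 share 1.97%, 1.91% and 1.43%.

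Promoter windows of RefSeq on GRCm38.p6, from 250 bases before to 50 after a gene's start, were matched by symbol for 35 of the 47 tested members and searched on both strands. Shares are of the 27025 genes with a window, a gene counting when any of its windows matched. The core of the interferon-stimulated response element, GAAA followed after any 2 bases by another GAAA, occurred in 3.99% of genes and, among the 35, in Cxcl10 and Cxcl14. The interferon-gamma activated site TTCNNNGAA occurred in 9.55% of genes and in Ccl17 and Cxcl14. The kappaB consensus occurred in 5.14% of genes and in 9 of the 35 members, Ackr2, Ccl27a, Ccl9, Ccr3, Ccrl2, Cxcl1, Cxcl10, Cxcl2 and Cxcl3. The hypoxia response core ACGTG occurred in 21.8% of genes and in Ackr4, Ccrl2, Cxcl1, Cxcl3 and Xcr1. A match is a description of letters and is neither a site nor a cause, and no match says only that these letters are not in the window.

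The 250 bases before the starts of Cxcl10 and Cxcl9 are shown because these neighbouring genes had the lowest log2 fold changes of the ligands in edgeR with all samples. In limma-voom and without 0%-Axitinib replicate 3 that of Xcl1 lay below that of Cxcl10, among other settings. Both are read 5′ to 3′ on the minus strand of GRCm38.p6, from chr5:92348890-92349139 for Cxcl10 and chr5:92328080-92328329 for Cxcl9, and capitals mark matches to the 4 motifs. In Cxcl10 the first is the interferon-stimulated response element core, from -213 to -204 counted from the start, and the others are kappaB matches from -159 to -150 and from -103 to -94, while Cxcl9 holds no match.
Cxcl10: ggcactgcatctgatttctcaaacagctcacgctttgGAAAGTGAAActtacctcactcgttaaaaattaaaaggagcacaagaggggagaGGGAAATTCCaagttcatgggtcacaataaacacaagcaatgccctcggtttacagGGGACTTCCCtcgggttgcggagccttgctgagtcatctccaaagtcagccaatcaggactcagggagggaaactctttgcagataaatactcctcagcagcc
Cxcl9: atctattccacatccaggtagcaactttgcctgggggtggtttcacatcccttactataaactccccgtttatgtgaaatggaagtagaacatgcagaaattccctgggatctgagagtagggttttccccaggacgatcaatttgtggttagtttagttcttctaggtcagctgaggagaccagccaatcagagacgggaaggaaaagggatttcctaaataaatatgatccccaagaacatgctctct

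Genes that act with the chemokine system were read from the same fit, in which 11.8% of all tested genes were lower and 9.54% higher by the criterion. Of 30 tested genes that carry the signal of chemokine receptors, 10 were lower by the criterion and none was higher, with a median log2 fold change of -0.68. The 10 were Arrb1, an arrestin, Adrbk2, a receptor kinase, Rgs1 and Rgs2, which end G protein signals, Pik3cg, Plcb2 and Prkcb, enzymes of the lipid signal, Dock2 and Elmo1, which activate Rac in migrating leukocytes, and the kinase Lyn. The most abundant per kilobase was the G protein subunit Gnai2, with 831, 835 and 1268 CPM in the 0%-Axitinib group and 689, 841 and 841 CPM in the 3%-Axitinib samples, which overlap. Of 24 tested cytokines, cytokine receptors and transcription factors that induce chemokine genes, 7 were lower (among them Il1b, Tnf, Ifngr2, Ltb, Irf1 and Hif1a) and 2 were higher (Il4ra and Ltbr), with a median of -0.33 and Tnfrsf1a the most abundant per kilobase. In 5 of the 7, among them Il1b, Tnf, Ltb and Irf1, 0%-Axitinib replicate 3 was at least 2 times the next sample. Irf1, a factor of the interferon response, had 55.1, 50.9 and 164 CPM in the 0%-Axitinib samples, against 32.7, 33.0 and 35.0 CPM in the 3%-Axitinib samples. It was highest in 0%-Axitinib replicate 3, as were Cxcl9 and Cxcl10, and did not overlap between groups.

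Of 13 tested receptors for other chemoattractants, 6 were lower by the criterion, namely the formyl peptide receptors Fpr1 and Fpr2, the lipid receptors Cysltr1, S1pr1, S1pr4 and Ptafr, and none was higher, with a median log2 fold change of -1.18 and Csf1r the most abundant per kilobase. In Fpr1, Fpr2 and S1pr4, 3 of these 6, 0%-Axitinib replicate 3 was at least 2 times the next sample. Ppbp and Pf4 are CXC chemokines of platelets that the rule for symbols does not take. Ppbp was lower by the criterion at 1.40, 1.28 and 263 CPM in the 0%-Axitinib group and 2.20, 3.37 and 1.15 CPM in the 3%-Axitinib samples, with 0%-Axitinib replicate 3 the only high sample. Pf4, the more abundant of the pair per kilobase, had a log2 fold change of 0.27.

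Markers of several leukocyte types were also lower in the 3%-Axitinib group, and their part in the member results was not tested. Some of these markers, named with each type, reached 10 counts in the 0%-Axitinib columns only, so the filter set their direction. Of 10 tested T and NK cell markers, 8 were lower by the criterion, with a median log2 fold change of -3.59 and summed levels of 25.0, 52.7 and 389 CPM in the 0%-Axitinib group and 19.8, 15.2 and 17.7 CPM in the 3%-Axitinib samples. Leaving out Ncr1 and Klrb1c, which passed in this way, 6 of 8 were lower with a median of -3.72. In 6 of the 8 lower markers 0%-Axitinib replicate 3 was at least 2 times the next sample. The most abundant per kilobase was Nkg7, a granule protein of NK and cytotoxic T cells. Cd8a, which was not tested, had 0.104, 2.96 and 25.7 CPM in the 0%-Axitinib group and 0 in all 3%-Axitinib samples. These levels stand beside those of Cxcr6, Cxcr3, Xcl1 and Ccl5, which were likewise highest in 0%-Axitinib replicate 3. Of 7 tested B and plasma cell markers, 5 were lower, or 2 of 4 leaving out Ms4a1, Cd79a and Mzb1. The summed levels were 187, 402 and 594 CPM against 169, 161 and 173 CPM, led per kilobase by Sdc1. Ms4a1 was at 0 in 3%-Axitinib replicates 1 and 3. In 4 of the 5 lower markers, Ms4a1 among them, 0%-Axitinib replicate 3 was at least 2 times the next sample. Of 9 tested dendritic cell markers, Xcr1 itself among them, 6 were lower, or 4 of 7 leaving out Xcr1 and Flt3, with summed levels of 1534, 2337 and 583 CPM against 480, 407 and 897 CPM, most of it from Itgax, which macrophages also express.

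Beside Ccr2 and Cx3cr1, receptors of monocytes and macrophages that met the criterion, none of the 12 macrophage and monocyte markers did in edgeR. Their median log2 fold change was -0.063, and the summed level was 11600, 12040 and 8878 CPM in the 0%-Axitinib group and 8390, 10770 and 16830 CPM in the 3%-Axitinib samples, led per kilobase by Lyz2. Of 6 general leukocyte markers only Ptprc was lower, with a median of -1.16, summed levels of 1858, 2635 and 3658 CPM against 1256, 1286 and 1980 CPM, and Laptm5 the most abundant per kilobase. All 9 tested markers of mast cells and eosinophils were lower by the criterion, as were the 7 left without Prg2 and Fcer1a. The summed levels were 105, 134 and 750 CPM against 12.7, 9.004 and 45.5 CPM, led per kilobase by Prg2. In 4 of the 9 lower markers 0%-Axitinib replicate 3 was at least 2 times the next sample. Ccr3 met the criterion in DESeq2 and limma-voom but not in edgeR with TMM. Epx, which was not tested, had 0, 0.058 and 50.4 CPM in the 0%-Axitinib group and 0 in all 3%-Axitinib samples. Of 9 tested neutrophil markers 6 were lower, with a median of -7.30 that rests on 0%-Axitinib replicate 3, the library in which Cxcr2 was high and Cxcr1 was not.

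Markers of blood endothelium were lower in 7 of 10 by the criterion, with a median log2 fold change of -1.26 and summed levels of 1320, 841 and 1132 CPM in the 0%-Axitinib group and 458, 657 and 684 CPM in the 3%-Axitinib samples, led per kilobase by Plvap. These values stand beside those of Cxcl12 and Cxcr4, which endothelial cells also express. Of 5 venous markers only Vcam1 was lower (median -0.64), and of 4 tested lymphatic markers only Flt4 was lower (median 0.087), beside the atypical receptors Ackr1 and Ackr2 of these vessels. Of the markers of fibroblasts, which are known sources of Cxcl12 and Cxcl14, 1 of 9 was higher, Col1a1, the most abundant per kilobase, with summed levels of 33100, 16940 and 11620 CPM against 30540, 75220 and 33280 CPM. Of pericyte and smooth muscle markers 2 of 7 were lower (Rgs5 and Kcnj8) and 1 was higher (Des), of adipocyte markers 2 of 5 were lower (Fabp4 and Lep, of which Lep passed the filter through the 0%-Axitinib columns only), of Schwann cell markers 1 of 5 was higher, and of cartilage markers 4 of 5 were higher (Col2a1, Acan, Sox9 and Chad). Keratinocyte markers summed to 787 CPM in 0%-Axitinib replicate 2 and to at most 8.35 CPM elsewhere, and Krt10 was the 1 of 2 tested that was lower.

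Members below the filter numbered 17. Ccl27b, Ccl21b and Ccl19-ps3 had 0 counts in all samples. The highest count in any sample was 29 for Ccl1, 24 for Ccr9, 23 for Ccl19-ps1, 18 for Ccl19, 8 for Ccl20, 7 for Ccl21a, 6 for Ccr6, 6 for Ccr8, 2 for Ccr4, 2 for Ccr1l1, 2 for Cxcl15, 1 for Ccl26 and 1 for Cxcl17. Several of them have near-identical copies in the genome. Ccl21a shares 71.6% of its 50-base words with other genes, Ccl19 52.0%, Ccl19-ps1 46.0% and Ccl27b 98.1%, and reads that map to several places were not counted, so the low counts of these lymphoid and epithelial chemokines are uncertain.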

How the data were processed

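The authors deposited raw read counts per gene, which the submitters' processing notes credit to STAR 2.5.2b on GRCm38 (mm10) after filtering with fastp. The annotation release and the strand setting are not given in the sources used here. Of the reads, 4 lines that name no gene held 3.84% to 48.4% (unmapped), 2.71% to 6.65% (multimapping), 3.17% to 6.14% (no feature) and 3.55% to 5.74% (ambiguous), and they were left out of library sizes and tests. In R 4.3.3, genes with at least 10 counts in 3 or more columns were scaled by TMM and tested with the quasi-likelihood test of edgeR 4.0.16, with Benjamini-Hochberg adjustment over 15115 genes. Scripts were tested on simulated data. Alternatives were DESeq2 1.42.0 size factors and Wald test, limma-voom (limma 3.58.1), total counts, filterByExpr, no filter, 10 counts in every column, a replicate block and each sample left out. Lengths and positions came from GENCODE M21 on GRCm38, where 61 of 64 members were found once. Counting intervals used scipy 1.17.1 in Python 3.11.15, and plots matplotlib 3.10.9. Every tested member could be named. Values per sample are given for members meeting the criterion and for the 3 ligands and 3 receptors highest per kilobase. Of other lists, genes meeting the criterion and the most abundant per kilobase were named, and markers at 0 were chosen after their values were seen. Members and lists were chosen with earlier results of these data known. Some genes that enter the counts are not reported here by name or value.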

Additional observations from a re-analysis of the deposited data

How the results depend on the processing

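Direction and side of the criterion were the same for all 47 members with DESeq2 size factors and filterByExpr. With total counts no member was higher by the criterion and 0 higher members had groups that did not overlap. DESeq2 gave 4 higher members (8.51%, against 10.7% of all genes) and, adjusted at 0.05, called 12 members and 1971 genes, while limma-voom gave 0 higher members and called 2 genes. Without a filter 15 genes were called, and with 10 counts in every column 8 members were lower and 2 higher, among 36 tested (12.0% and 9.75% of all genes were). The log2 fold change of Cxcl16 turned to -0.10 with total counts, -0.016 in limma-voom, -0.0024 without a filter and -0.032 with the replicate block, that of Cxcl1 to 0.023 in limma-voom, and that of Ackr4 to 0.10 in limma-voom and 0.24 with the block. The causes were not tested. With the replicate block 11 members were lower and 3 higher (8.97% and 8.20% of all genes were), 11 of these 14 being among the 16 of the fit without it, and 2 genes were called after adjustment. Deviations of same-numbered samples correlated at 0.183, -0.144 and -0.173, and those of differently numbered samples at -0.204 to 0.212. With 3 samples per group these values cannot decide whether the numbers pair the samples.

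With each sample left out in turn, 1239 to 2093 genes were lower and 977 to 2186 higher by the criterion, 0 to 1556 genes and 0 to 6 members were called after adjustment in edgeR, 10 to 16 members were lower and 0 to 5 higher, and 12 to 15 lower and 1 to 7 higher members did not overlap, where 18.8% to 27.4% of all genes were lower and 17.3% to 26.8% higher without overlap. Log2 fold changes that crossed 0 ran from -0.54 to 0.56 for Cxcl1, -0.80 to 0.20 for Cx3cl1, -4.10 to 1.26 for Cxcr2, -0.96 to 0.87 for Cxcl3, -0.79 to 0.24 for Ccl22, -1.48 to 0.59 for Cxcr5, -1.16 to 1.40 for Ackr4, -0.024 to 0.40 for Ccl9, -0.92 to 0.64 for Ccl4, -1.75 to 0.0030 for Ccr7, -0.43 to 0.64 for Ccl17, -0.27 to 0.26 for Cxcl16 and -0.028 to 0.90 for Ccl24. Depth limits the members with few counts, since 3%-Axitinib replicate 1 had 9225518 counts on genes, where 3 counts are 0.330 CPM. Of the 47 tested members, 36 had 10 counts in every column.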
